A study of Mus musculus with 2 samples.

Results

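Glycolysis, the pentose phosphate pathway and the tricarboxylic acid (TCA) cycle were examined in sorted blood stem and progenitor cells through 46 genes. These were chosen by name from textbook pathway membership out of the 22020 gene symbols of the expression table. The choice was made with earlier results of these data known. The 46 genes comprised enzymes and isoenzymes of these routes, the carriers that bring glucose in and take lactate out, the pyruvate dehydrogenase complex with its kinases, and the hypoxia factor Hif1a with 2 of its prolyl hydroxylases. Each gene was read from its transcript with the highest mean RPKM, a read density that accounts for transcript length and library size. Genes whose 2 libraries averaged 1 RPKM or more are called measured, which holds for 45 of the 46 genes and for 11356 genes in all.

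The libraries came from Utx/p53 DKO mice, labelled as lacking Kdm6a (Utx) as well as Trp53 (p53), and from p53 KO mice, labelled as lacking Trp53 alone, so that both carry the p53 knockout. Both were C57BL/6 mice of 8 weeks, and LSK cells (lineage-negative, c-Kit-positive, Sca-1-positive) were sorted from each, a fraction that holds the blood stem cells and earliest progenitors. Kdm6a encodes an X-linked demethylase of histone H3 at lysine 27. The deleted exons, any Cre driver, the sex of the mice and any pooling of animals are not stated in the labels. There was 1 library per genotype, with 19926294 reads (DKO) and 17088105 reads (p53 KO) per the file header. No difference therefore has a replicate check, no test was made, and the 95% intervals below cover counting error only.

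In glycolysis, glucose is taken up, phosphorylated, split into triose phosphates and converted to pyruvate, with a yield of ATP and NADH. Pyruvate is reduced to lactate and exported, or it enters the mitochondria, where pyruvate dehydrogenase passes it to the TCA cycle. The pentose phosphate pathway branches off at the first phosphorylated sugar and supplies NADPH and the ribose of nucleotides. Blood stem cells in the marrow are known to rely on glycolysis and on the hypoxia factor HIF-1, which switches on many of these genes, and progenitors that begin to mature increase mitochondrial respiration.

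Most genes of glycolysis and of the pentose phosphate pathway were higher in the DKO library, while those of the TCA cycle lay close to the p53 KO level. Of the 45 measured genes, 11 were at least 2-fold higher in the DKO library on the log2(RPKM + 1) scale, 24.4% of them, against 6.6% of all measured genes. These were Hk3, Gpi1, Pfkp, Aldoa, Gapdh, Eno1, Slc16a3, G6pdx, Pgd, Rpia and Egln3. Another 4, or 8.89%, were at least 2-fold lower (Slc2a3, Pfkm, Aldoc and Pdk1), against 13.5% of all genes, and 30 lay within 2-fold. The median log2 difference, DKO minus p53 KO, was 0.28 over the 45 genes and -0.24 over all genes, and 36 of the 45 lay above the all-gene median.

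The scale of the libraries moves these counts. Measured from the all-gene median, 15 genes were at least 2-fold higher and 2 lower (33.3% and 4.44%), against 9.63% and 8.76% of all genes, with Pgk1, Pgam1, Taldo1 and Hif1a added to the higher ones and Pfkm (-0.94) and Aldoc (-0.77) no longer among the lower ones. By the log2 fold change in the authors' deposited table, 20 were at least 2-fold higher and 1 was lower, against 19.6% and 8.85% of all genes. On that scale the median was 0.89 for these genes and 0.32 for all genes in the authors' deposited table. With both libraries scaled to equal sums the count was 6 higher and 6 lower (13.3% each), against 4.34% and 24.1% of all genes. Hk3, Pfkp, Aldoa, Gapdh and G6pdx then fell short of 2-fold higher, and Hk1 and Idh3b were 2-fold lower or more. Small differences change sign with the scale: with the authors' gfold constants this held for 13 genes, among them Slc2a1, Pfkl, Ldha, Pdha1, Pgls and all TCA genes below 0 but Idh3b, and with equal sums for Cs, Ldhb, Mdh2, Pdhb, Pdk3 and Tkt. The median of the 12 measured glycolysis genes exceeded that of the 11 TCA genes by 1.07 on the log2 scale, and by 1.03 to 1.09 over the alternatives tried. A scaling moves both medians nearly alike and so cancels in this distance, which the scalings therefore could not test. The same distance for the 6 pentose phosphate genes was 1.13.

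**Figure D1:**
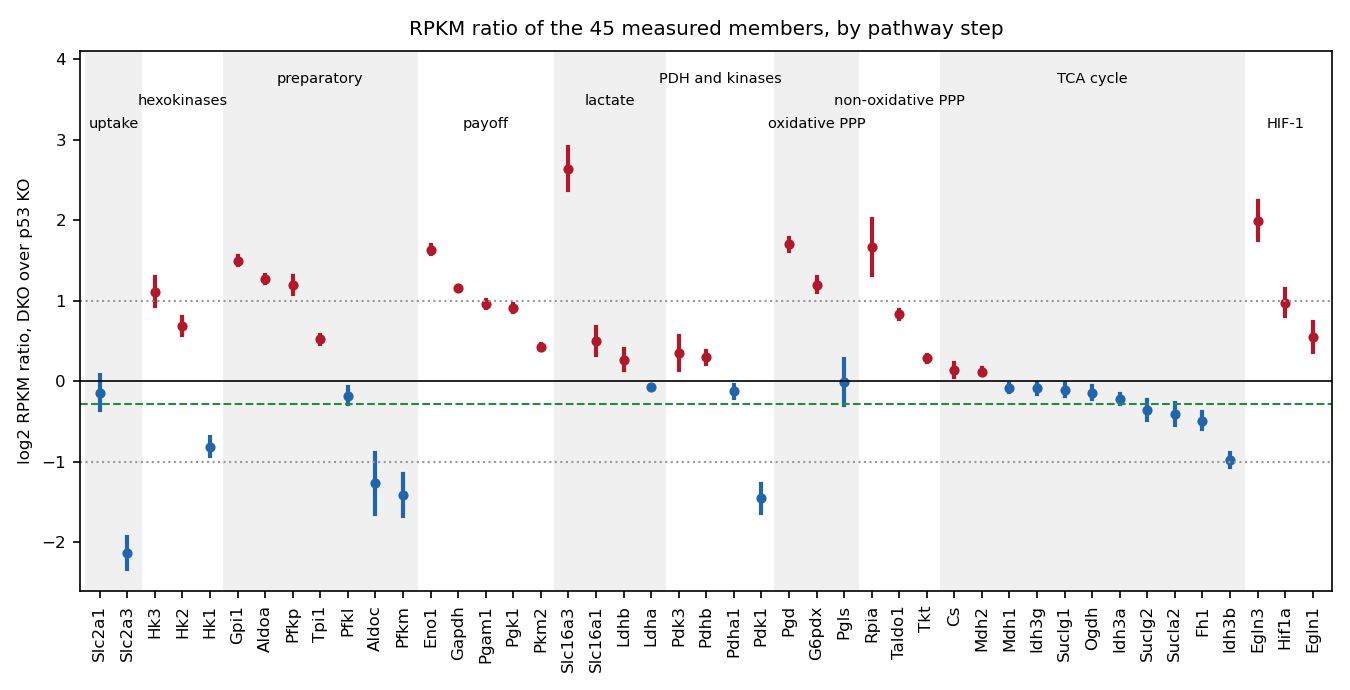
Log2 ratio of RPKM, DKO over p53 KO, for the 45 measured genes ordered by pathway step, with bars for the 95% interval of counting error. The solid line marks equal RPKM, the dotted lines 2-fold differences and the dashed green line the median of all measured genes without a pseudocount (-0.28). Gpi1, Aldoa, Gapdh and Eno1 stand well above both lines, the 11 TCA genes stay within 1 log2 unit of equality, and Slc2a3 is the lowest point.

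The cells of the DKO library carried other marker levels than those of the p53 KO library, and these values stand beside every result below. Of 13 measured LSK and stem cell markers, 9 were at least 2-fold lower and none higher, with a summed level of 418 RPKM in DKO and 987 RPKM in p53 KO and none at 0. Kit had 16.0 RPKM in DKO and 64.2 RPKM in p53 KO, whereas Ly6a (Sca-1) had 281 and 255 RPKM in DKO and p53 KO. Of 20 measured granulocyte and monocyte markers, 15 were higher and 2 lower, and their sum was 71754 RPKM in DKO and 6396 RPKM in p53 KO, again with none at 0. That sum made up 15.3% of all RPKM in DKO and 1.77% in p53 KO. In both libraries the granulocyte and monocyte sum exceeded the LSK and stem cell sum, so LSK is used here as the name of the sort. Elane, neutrophil elastase, had 26714 RPKM in DKO and 1649 RPKM in p53 KO. All 9 measured erythroid markers were lower, and the list summed to 241 RPKM in DKO and 1737 RPKM in p53 KO. Below the measured level, Epor had 0 RPKM in DKO and 0.192 RPKM (6 reads) in p53 KO. Klf1, also below that level, went the other way, with 1.08 RPKM (33 reads) in DKO and 0.610 RPKM (16 reads) in p53 KO. Its ratio was 1.77 (0.946 to 3.44). The macrophage list summed to 209 RPKM in DKO and 50.0 RPKM in p53 KO, with 5 of 6 markers higher and none lower. Of 11 lymphoid and B cell markers 10 were lower and 1 was higher, and the sums of 634 RPKM in DKO and 760 RPKM in p53 KO rest largely on that 1, Igll1, with 563 RPKM in DKO and 166 RPKM in p53 KO. Of 8 T and NK cell markers 5 were higher and 2 lower, with sums of 183 RPKM in DKO and 261 RPKM in p53 KO, in which Nkg7 counted 99.6 RPKM in DKO and 229 RPKM in p53 KO. Of 3 endothelial markers 2 were higher and 1 lower, with sums of 65.5 RPKM in DKO and 28.4 RPKM in p53 KO. Of 12 proliferation genes none was past 2-fold, and their sums were 818 RPKM in DKO and 810 RPKM in p53 KO. The part of these marker differences in the levels of the metabolic genes was not tested, and in bulk RNA fewer cells of a type and less RNA per cell cannot be told apart. Of the targeted genes, Kdm6a had 1.26 RPKM (132 reads) in DKO and 5.32 RPKM (479 reads) in p53 KO, a value 4.23-fold lower (95% interval 3.48 to 5.17). Trp53 RNA was present in both libraries, at 12.9 RPKM (456 reads) in DKO and 19.4 RPKM (587 reads) in p53 KO, so these values do not bear out the p53 knockout at the RNA level. Without the deleted exons or a library with p53, they do not settle whether the allele still gives RNA.

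**Figure D2:**
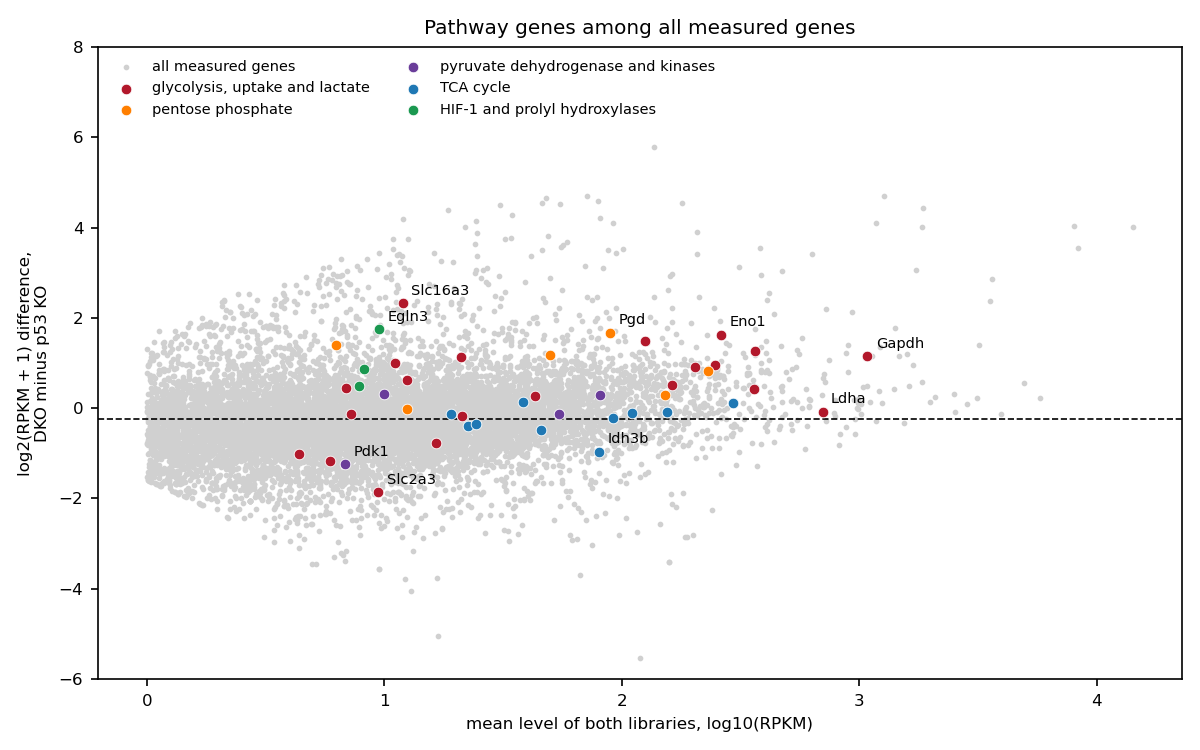
Log2 difference, DKO minus p53 KO, on log2(RPKM + 1) against mean level for all 11356 measured genes (grey), with the 45 pathway genes coloured by route. The dashed line marks the median of all measured genes (-0.24). Most glycolysis and pentose phosphate genes lie above it, Slc16a3 highest, and the TCA genes lie near it, Idh3b lowest.

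The 2 glucose transporters differed from each other. Slc2a3, a high-affinity transporter, had 3.50 RPKM (276 reads) in DKO and 15.3 RPKM (1037 reads) in p53 KO. This was 4.38-fold lower in DKO (3.83 to 5.02), the lowest ratio among the 45 genes. Slc2a1, the widely expressed transporter, had 6.87 RPKM in DKO and 7.58 RPKM in p53 KO, a ratio of 0.906 whose interval (0.778 to 1.06) includes 1. Slc2a1 thus made up 66.3% of the pair's summed RPKM in DKO and 33.1% in p53 KO. The log2 ratio of Slc2a1 to Slc2a3 was higher by 1.99 in DKO (1.70 to 2.28), a comparison within each library that no scaling changes.

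Hexokinases phosphorylate glucose and keep it in the cell. Hk1, the widely expressed form, had 11.9 RPKM in DKO and 21.0 RPKM in p53 KO, 1.76-fold lower (1.62 to 1.91). Hk2, the form that hypoxia and growth factors induce, had 15.4 RPKM in DKO and 9.57 RPKM in p53 KO, a ratio of 1.61 (1.48 to 1.75). Hk3, the form typical of myeloid cells, had 15.1 RPKM in DKO and 6.97 RPKM in p53 KO, a ratio of 2.16 (1.91 to 2.45). The sum over the 3 genes moved little, at 42.4 RPKM in DKO and 37.5 RPKM in p53 KO, while its makeup differed. Hk1 held 28.1% of it in DKO and 55.9% in p53 KO, and Hk3 held 35.6% and 18.6% in DKO and p53 KO. On the log2 scale the Hk3 to Hk1 balance was 1.93 higher in DKO (1.71 to 2.14) and the Hk2 to Hk1 balance was higher too, with an interval of 1.33 to 1.66. Hk3 sat at the edge of the 2-fold rule, with a log2 difference of 1.01.

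In the preparatory phase, Gpi1, which turns glucose 6-phosphate into fructose 6-phosphate, had 186 RPKM (10564 reads) in DKO and 65.7 RPKM (3206 reads) in p53 KO. Its ratio was 2.83 (2.72 to 2.94). Phosphofructokinase makes the committed step, and its isoenzymes went in different directions. The platelet-type Pfkp had 29.1 RPKM in DKO and 12.7 RPKM in p53 KO, a ratio of 2.29 (2.12 to 2.48). The muscle-type Pfkm had 3.23 RPKM in DKO and 8.56 RPKM in p53 KO, 2.65-fold lower (2.22 to 3.18). The liver-type Pfkl had 19.9 RPKM in DKO and 22.6 RPKM in p53 KO, a ratio of 0.882 (0.820 to 0.949). Pfkp was therefore the most abundant isoenzyme in DKO, with 55.7% of the family's RPKM in DKO and 29.0% in p53 KO, and Pfkl the most abundant in p53 KO, with 38.1% in DKO and 51.5% in p53 KO. The Pfkp to Pfkm balance differed by 2.61 on the log2 scale (2.33 to 2.88).

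Aldolase splits the sugar. Aldoa, the general form, had 512 RPKM in DKO and 212 RPKM in p53 KO, a ratio of 2.41 (2.34 to 2.49). Aldoc, a form best known from brain, had 2.57 RPKM (87 reads) in DKO and 6.15 RPKM (179 reads) in p53 KO, 2.40-fold lower (1.85 to 3.14) and just past the 2-fold rule. Aldoa supplied nearly all aldolase RNA in both, 99.5% in DKO and 97.2% in p53 KO. Tpi1, which interconverts the resulting triose phosphates, had 193 RPKM in DKO and 134 RPKM in p53 KO, a ratio of 1.44.

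**Figure D3:**
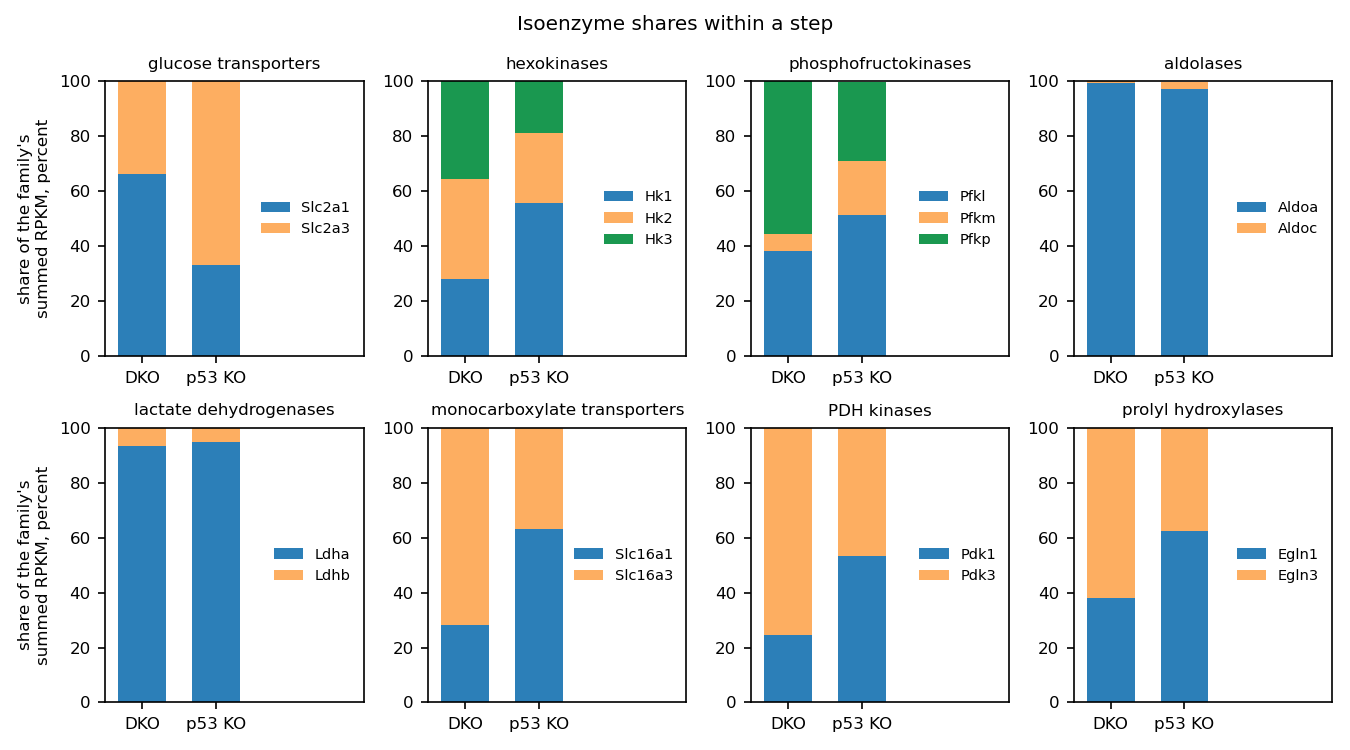
Share of each isoenzyme in the summed RPKM of its family, in percent, in the DKO (left bar) and the p53 KO library (right bar). The 3 hexokinases have similar shares in DKO while Hk1 leads in p53 KO, and Pfkp, Slc16a3, Pdk3 and Egln3 hold larger shares in DKO than in p53 KO. Ldha dominates lactate dehydrogenase in both.

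All 5 measured genes of the payoff phase, in which ATP and NADH are gained, were higher in DKO. Gapdh, which yields the NADH, had 1493 RPKM in DKO and 669.5 RPKM in p53 KO, a ratio of 2.23 (2.19 to 2.28), and was the most abundant gene of the set in DKO. Pgk1, the first ATP-yielding kinase, had 266 RPKM in DKO and 141 RPKM in p53 KO, and Pgam1, the mutase after it, had 326 and 167 RPKM in DKO and p53 KO. Their ratios were 1.88 and 1.95, short of 2-fold. Eno1, enolase, had 396 RPKM in DKO and 127 RPKM in p53 KO, with the highest ratio of the phase at 3.11 (3.00 to 3.22). Pkm2, pyruvate kinase, had 413 RPKM in DKO and 307 RPKM in p53 KO, a ratio of 1.35, the smallest of the phase. The neuronal enolase Eno2 had no reads in DKO and 4 reads in p53 KO (0.0890 RPKM) and is the 1 gene of the 46 below the measured level.

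Reads of several of these genes could be shared with near-identical copies. Gm5506, an intronless copy of enolase, was listed at 427 and 853 RPKM in DKO in its 2 rows and at 137 and 288 RPKM in p53 KO, ratios of 3.11 and 2.96 next to that of Eno1, so the level of Eno1 is uncertain. Gapdh, Aldoa, Pgk1, Ldha, Tpi1, Pgam1, Pkm2 and Mdh1 also have processed copies in the mouse genome, and the treatment of multiply mapped reads is not stated in the labels or the file header. The table holds 1 transcript for Pkm2, so the choice between the M1 and M2 exons of pyruvate kinase was not measured.

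At the lactate step, the enzyme and its exporters behaved differently. Ldha, the form that favours lactate formation, had 683 RPKM in DKO and 719 RPKM in p53 KO, a ratio of 0.950 (0.931 to 0.968), and was the most abundant of the 46 genes in p53 KO. Ldhb, which favours pyruvate formation, had 47.2 RPKM in DKO and 39.1 RPKM in p53 KO. Ldha accounted for 93.5% of the pair in DKO and 94.8% in p53 KO. Slc16a3, the lactate exporter of strongly glycolytic cells, had 20.6 RPKM (979 reads) in DKO and 3.31 RPKM (135 reads) in p53 KO. Its ratio of 6.22 (5.19 to 7.50) was the highest among the 45 genes. Slc16a1, the broadly expressed carrier of lactate and pyruvate, had 8.11 RPKM in DKO and 5.73 RPKM in p53 KO, a ratio of 1.42 (1.26 to 1.60). Together the 2 carriers summed to 28.7 RPKM in DKO and 9.04 RPKM in p53 KO, of which Slc16a3 made up 71.8% in DKO and 36.6% in p53 KO.

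Pyruvate dehydrogenase admits pyruvate to the TCA cycle, and its kinases shut it off. The E1 subunit genes were within 2-fold, with Pdha1 at 52.1 RPKM in DKO and 56.8 RPKM in p53 KO and Pdhb at 88.8 and 72.4 RPKM in DKO and p53 KO. The kinase Pdk1 had 3.64 RPKM (373 reads) in DKO and 9.99 RPKM (877 reads) in p53 KO, 2.74-fold lower (2.43 to 3.10). It is a known target of HIF-1. Pdk3 had 11.2 RPKM in DKO and 8.75 RPKM in p53 KO, a ratio of 1.28 (1.10 to 1.48), and supplied 75.4% of the pair in DKO and 46.7% in p53 KO. Pdk1 and the TCA gene Idh3b lie on chromosome 2, whose 846 measured genes had a median log2 difference of -0.63. The 20 measured genes nearest to Pdk1 had a median of -0.75 and those nearest to Idh3b a median of -0.61. For the other genes of the set this neighbour median ran between -0.58 and 0.34. The part of the chromosome in the lower values of Pdk1 and Idh3b was not tested.

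In the oxidative branch of the pentose phosphate pathway, which yields NADPH, the first and the last enzyme were higher and the middle one was not. G6pdx, the X-linked entry enzyme, had 69.2 RPKM (3609 reads) in DKO and 30.2 RPKM (1349 reads) in p53 KO, a ratio of 2.29 (2.15 to 2.44). Pgls, the lactonase, had 12.4 RPKM in DKO and 12.5 RPKM in p53 KO, a ratio of 0.994 with an interval of 0.814 to 1.22. Pgd, the dehydrogenase that releases the pentose, had 137 RPKM (6052 reads) in DKO and 42.0 RPKM (1598 reads) in p53 KO, a ratio of 3.25 (3.07 to 3.43). The branch as a whole summed to 218 RPKM in DKO and 84.7 RPKM in p53 KO. Pentose phosphates then feed the non-oxidative branch. There Rpia, which makes ribose 5-phosphate, had 9.52 RPKM (336 reads) in DKO and 3.01 RPKM (91 reads) in p53 KO, a ratio of 3.17 (2.50 to 4.04). Taldo1, transaldolase, had 294 RPKM in DKO and 165 RPKM in p53 KO, a ratio of 1.78 (1.71 to 1.85), and Tkt, transketolase, had 166 and 137 RPKM in DKO and p53 KO, a ratio of 1.22.

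None of the 11 TCA genes reached a 2-fold difference in either direction, although Idh3b did with equal sums (-1.34). Their log2 differences ran between -0.97 and 0.14, with 9 below 0 and 2 above, and their median of -0.13 lay above the all-gene median and turned positive with equal upper quartiles (0.02) and with the authors' gfold constants (0.44), while with equal sums it was -0.49. Cs, citrate synthase at the entry of the cycle, had 40.0 RPKM in DKO and 36.3 RPKM in p53 KO, and Mdh2, the malate dehydrogenase that closes it, had 305 and 280 RPKM in DKO and p53 KO. Between them, Idh3b, a regulatory subunit of the NAD-dependent isocitrate dehydrogenase, was the lowest, with 54.1 RPKM in DKO and 107 RPKM in p53 KO, 1.97-fold lower (1.85 to 2.10). The other subunits of that enzyme, Idh3a at 84.9 and 98.8 RPKM and Idh3g at 150 and 160 RPKM in DKO and p53 KO, were nearly level. Idh3b was thus 18.7% of the 3 subunits' RPKM in DKO and 29.2% in p53 KO.

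The remaining TCA genes lay slightly below their p53 KO level. Ogdh, of the oxoglutarate dehydrogenase complex, had 18.1 RPKM in DKO and 19.9 RPKM in p53 KO. The succinyl-CoA ligase genes Suclg1, Suclg2 and Sucla2 had 107, 21.4 and 19.4 RPKM in DKO and 114, 27.4 and 25.6 RPKM in p53 KO. Fh1, fumarate hydratase, had 37.9 RPKM in DKO and 53.2 RPKM in p53 KO, a ratio of 0.713, the lowest after Idh3b. The cytosolic malate dehydrogenase Mdh1 had 151 RPKM in DKO and 160 RPKM in p53 KO. It is counted here in the median and sum of the TCA genes, although the cycle itself runs in the mitochondria. Summed over genes, the TCA enzymes came to 989 RPKM in DKO and 1083 RPKM in p53 KO (0.913-fold), the pentose phosphate enzymes to 688 and 389 RPKM (1.77-fold), and glycolysis to 3840 and 1875 RPKM (2.05-fold), in DKO and p53 KO in each case. All 46 genes took 1.39% of the summed RPKM in DKO and 1.20% in p53 KO. Of the 12 glycolysis genes, 9 had a log2 difference above that of the highest TCA gene.

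**Figure D4:**
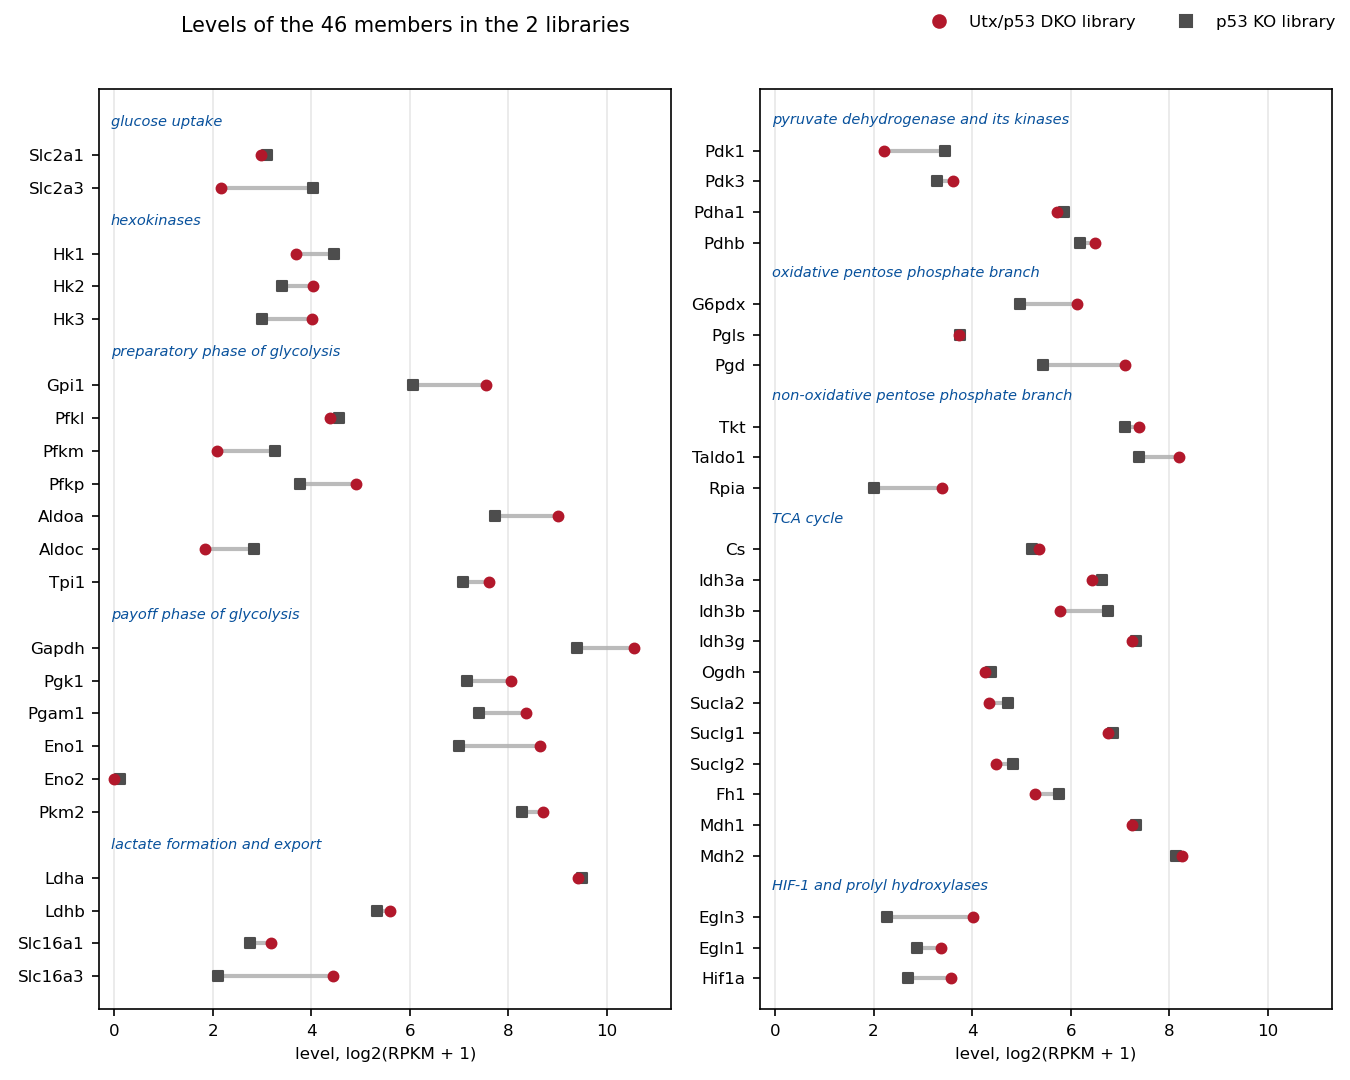
RPKM of the 46 genes on a log axis, grouped by pathway step, in the DKO and the p53 KO library (1 library each). The DKO points lie above the p53 KO points for all 5 measured payoff genes, and the paired points nearly coincide for most of the TCA genes.

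Abundant genes as a whole leaned higher in the DKO library. Among the 645 genes averaging 100 RPKM or more the median log2 difference was 0.28 and 14.6% were at least 2-fold higher in DKO. The 15 pathway genes at that level had a median of 0.52, and 4 of them were at least 2-fold higher. At 20 to 100 RPKM both medians were -0.12 (13 pathway genes among 2641), and at 5 to 20 RPKM the median was 0.38 for 16 pathway genes and -0.27 for all 4337. Of the 46 genes, 5 are X-linked like Kdm6a (Pgk1, Pdk3, Pdha1, G6pdx and Idh3g), with a median of 0.32, where all 352 measured X-linked genes had -0.18.

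The 3 genes of oxygen sensing in the set were also higher in the DKO library, 1 of them by at least 2-fold. Of 4 measured HIF regulators outside the set, 3 had log2 differences below 0, as had 7401 of all 11356 measured genes. None of the 4 was past 2-fold. Hif1a, the regulated subunit of HIF-1, had 10.8 RPKM (1027 reads) in DKO and 5.49 RPKM (447 reads) in p53 KO, a ratio of 1.97 (1.76 to 2.21). Egln3, a prolyl hydroxylase that marks the HIF subunit for degradation and is itself a HIF target, had 15.2 RPKM (809 reads) in DKO and 3.81 RPKM (174 reads) in p53 KO, a ratio of 3.99 (3.38 to 4.72). Egln1, the main oxygen sensor of this family, had 9.29 RPKM in DKO and 6.33 RPKM in p53 KO, a ratio of 1.47 (1.29 to 1.67). Egln3 therefore made up 62.0% of the pair in DKO and 37.6% in p53 KO. Outside the set, Hif1an, Arnt and Egln2 had log2 differences of -0.97, -0.63 and -0.35, and Vhl had 0.10. HIF-1 protein is controlled mainly by degradation, which RNA levels do not show.

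HIF-1 binds the core letters ACGTG or GCGTG, and MYC, another regulator of glycolysis, binds CACGTG, which contains ACGTG. The 250 bases before the gene start were searched on both strands in RefSeq's promoter windows (build GRCm38.p6), found for 44 of the 46 genes. ACGTG was present for 19 of the 44 genes (43.2%), against 18.5% of the 27025 genes with a window, and GCGTG for 28 (63.6%) against 30.9%. CACGTG was present for 5 (11.4%) against 6.86%. The 27025 genes were not limited to the 11356 measured ones or matched in base makeup, so these shares are not a like comparison. Either HIF core stood in the window of 10 of the 11 genes at least 2-fold higher in DKO and of 24 of the 29 within 2-fold that have a window, and of all 3 lower ones that have one, against 41.5% of all genes. A gene counted if any of its windows matched. The 44 genes had 62 windows, 8 of them from the 3 lower genes, and the 27025 genes had 32851. Per window the shares were 81.25% (higher), 81.1% (within 2-fold) and 75% (lower), against 38.6% of all windows. The windows of 4 genes are printed because their genes span the range of the lactate and oxygen-sensing results: the most increased carrier, the increased hydroxylase, a payoff kinase and a lactate dehydrogenase that was level. Each reads 5′ to 3′ on the gene's strand, with ACGTG or its reverse complement in capitals, and overlapping matches run together. They are Slc16a3 (chr11:120948817-120949066, plus strand), Egln3 (chr12:54203875-54204124, minus strand), Pgk1 (chrX:106186850-106187099, plus strand) and Ldha (chr7:46845554-46845803, plus strand).
Slc16a3: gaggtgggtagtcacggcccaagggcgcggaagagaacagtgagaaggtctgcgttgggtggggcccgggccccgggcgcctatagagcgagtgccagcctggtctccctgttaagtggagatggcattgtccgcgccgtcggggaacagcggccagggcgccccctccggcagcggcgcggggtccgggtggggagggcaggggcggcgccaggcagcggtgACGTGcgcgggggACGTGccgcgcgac
Egln3: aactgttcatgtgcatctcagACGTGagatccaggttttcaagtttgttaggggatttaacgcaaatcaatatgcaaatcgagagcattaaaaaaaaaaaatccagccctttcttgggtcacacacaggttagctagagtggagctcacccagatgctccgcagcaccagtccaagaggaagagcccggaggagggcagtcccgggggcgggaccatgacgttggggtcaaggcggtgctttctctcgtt
Pgk1: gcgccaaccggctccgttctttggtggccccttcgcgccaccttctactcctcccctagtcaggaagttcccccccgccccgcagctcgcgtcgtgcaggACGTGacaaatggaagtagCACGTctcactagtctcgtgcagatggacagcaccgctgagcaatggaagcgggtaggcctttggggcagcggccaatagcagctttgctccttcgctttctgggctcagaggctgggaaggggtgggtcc
Ldha: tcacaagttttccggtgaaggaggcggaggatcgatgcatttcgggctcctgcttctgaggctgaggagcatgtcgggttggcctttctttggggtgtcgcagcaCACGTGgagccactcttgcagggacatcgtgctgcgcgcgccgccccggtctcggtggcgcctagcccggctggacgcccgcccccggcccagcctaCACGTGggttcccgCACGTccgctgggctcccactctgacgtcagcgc
Slc16a3, with 2 matches, had a ratio of 6.22, Egln3 with 1 match 3.99 and Pgk1 with 2 matches 1.88, whereas Ldha, with 5 matches, had 0.950. Each of the 2 full CACGTG words of Ldha counts as 2 of its matches, 1 on each strand. A match is a description of the letters and not a site.

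Genes of the same routes outside the 46 were read from wider lists, of which 86 of 115 genes were measured. Of these, 9 (10.5%) were at least 2-fold higher and 5 (5.81%) lower in DKO, against 6.6% and 13.5% of all measured genes. The median log2 difference of the 86 genes was -0.11, against -0.24 for all measured genes. Other glycolysis and glucose handling genes gave 3 higher and 2 lower of 24, pyruvate entry 2 and 0 of 11, other pentose phosphate genes 0 and 0 of 4, TCA and anaplerosis 1 and 1 of 18, HIF regulators 0 and 0 of 4, other HIF targets 2 and 1 of 11, and transcriptional and signalling regulators 1 and 1 of 14. The 8 with the largest differences ran in both directions. Slc2a6, a lysosomal glucose transporter homologue of myeloid cells, had 14.2 RPKM in DKO and 1.84 RPKM in p53 KO, and Slc2a8, an intracellular transporter, had 3.32 and 0.225 RPKM in DKO and p53 KO. Myc had 22.7 RPKM in DKO and 108 RPKM in p53 KO, a log2 difference of -2.20, while Mlx, a partner of the glucose-sensing factors, had 52.5 and 14.6 RPKM in DKO and p53 KO. Myc and Mlx thus differed in opposite directions. Of the 14 measured transcriptional and signalling regulators, 12 had log2 differences below 0 and 2 above, with a median of -0.31. Among all 11356 measured genes, 7401 were below 0. The part of these regulators in the enzyme levels was not tested.

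Among the other 4, Ero1l, a hypoxia-induced oxidase of the endoplasmic reticulum, had 19.4 RPKM in DKO and 3.97 RPKM in p53 KO. Pygl, which frees glucose units from glycogen, had 39.3 RPKM in DKO and 14.0 RPKM in p53 KO. Bpgm, which makes the 2,3-bisphosphoglycerate of red cells, had 4.05 RPKM in DKO and 12.9 RPKM in p53 KO, lower as the measured erythroid markers were. Idh1, the cytosolic NADP-dependent isocitrate dehydrogenase, had 112 RPKM in DKO and 33.4 RPKM in p53 KO, a log2 difference of 1.72. Its mitochondrial counterpart Idh2 went the other way, with 18.8 RPKM in DKO and 39.5 RPKM in p53 KO, a log2 difference of -1.03.

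Subunits that complete the mitochondrial steps stayed mostly near the p53 KO level. Of the pyruvate dehydrogenase complex, Dlat had 5.61 RPKM in DKO and 4.54 RPKM in p53 KO, Dld had 67.5 and 54.8 RPKM, and Pdhx, on chromosome 2, had 5.66 and 11.8 RPKM, in DKO and p53 KO in each case. The 20 genes nearest to Pdhx had a median log2 difference of -0.87. Dlst, of the oxoglutarate dehydrogenase complex, had 30.9 RPKM in DKO and 32.5 RPKM in p53 KO. The succinate dehydrogenase subunits Sdha, Sdhb, Sdhc and Sdhd, which also form complex II of respiration, had 91.6, 202, 54.5 and 108 RPKM in DKO and 117, 183, 54.0 and 86.3 RPKM in p53 KO, log2 differences of -0.35, 0.14, 0.01 and 0.32. Both genes of the mitochondrial pyruvate carrier, Brp44 at 18.2 and 7.06 RPKM and Brp44l at 264 and 126 RPKM in DKO and p53 KO, were at least 2-fold higher in DKO.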

How the data were processed

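RNA of sorted LSK cells was sequenced from 1 Utx/p53 DKO and 1 p53 KO library (genotype from the labels). Per the labels' protocols, oligo-dT-primed cDNA was amplified with a SMART kit and read from both ends; without molecular identifiers, amplification can distort low values. TopHat2 2.1.0, bcl2fastq 1.8.4 and the mm9 build are listed in the submitters' processing notes. The authors deposited a gfold 1.1.4 table, per the file headers, with RPKM of both libraries for 28344 transcripts; columns were assigned by the header's library order. The authors' deposited log2 fold change uses reads scaled by normalization constants of 1 (DKO) and 1.30144 (p53 KO) in place of the read totals, and stands 0.602 above the log2 ratio of RPKM. The GFOLD value, also on a log2 scale, shrinks that fold change towards 0 and has no fixed distance from RPKM. The deposited q-value (E-FDR) was not used. By the GFOLD value in the authors' deposited table, 38 of the 46 genes lay above 0 and 6 below, against 54.5% and 22.9% of all measured genes.

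Differences were taken on log2(RPKM + 1), where those of low genes come out too small, over genes averaging 1 RPKM or more. With 1 library per genotype, no test was run. Whole reads were recovered by searching transcript lengths of 100 to 20000 bases at which both RPKM values and the authors' log2 fold change give whole reads; 38 of the 46 genes had 1 solution, and for the other 8 the fewest reads were taken and none are printed. The 45 measured genes had medians of 2254 (DKO) and 1483 (p53 KO) reads. From these reads came 95% Clopper-Pearson (exact) intervals for each RPKM ratio, and 43 of the 45 excluded a ratio of 1 (not Slc2a1 and Pgls). The share of all measured genes that would do so is not given, so this count does not set these genes apart. The intervals hold only for scaling by read totals. Intervals of isoenzyme balances are normal approximations from the same reads. The recovery of reads and the 2-fold rule were tested on simulated data.

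The genes and lists were chosen with earlier results of these data known. All 46 genes are named, with the 8 largest differences in the wider lists, the genes completing their steps (some are not reported here), up to 4 markers a list (fewer printed), Kdm6a and Trp53. Epor, Klf1, Kit, Ly6a, Igll1, Nkg7, Brp44, Brp44l, Gm5506, Hif1an, Arnt, Egln2 and Vhl were named after their values were seen. Alternatives were pseudocounts of 0.1 and 5, other filters, other scalings, 1.5-fold and 3-fold rules, other transcripts and, added after the data were seen, leaving out Pdk1 and Idh3b. Chromosomes and gene order came from RefSeq's GRCm38.p6 table. Python 3.11.15, pandas 2.3.3 and scipy 1.17.1 were used.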

Additional observations from a re-analysis of the deposited data

How the results depend on the processing

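No paired analysis was possible because there was 1 library per genotype, which also leaves no replicate to leave out. Of the 46 genes, 11 were higher and 4 lower, with a median log2 difference of 0.28, or 0.52 from the all-gene median. With a pseudocount of 5, 8 were higher (without Hk3, Pfkp and Rpia) and 1 was lower, against 426 and 476 of the 11356 measured genes. The median from the all-gene median was then 0.39, as it was without the filter. Equal upper quartiles gave a median of 0.44. Equal sums gave 6 higher and a median of -0.095, which reversed; the medians of the lactate group (-0.003) and the pyruvate dehydrogenase group (-0.29) also turned negative, and that of the TCA group turned positive with equal upper quartiles and with the gfold constants. The authors' gfold constants gave 19 higher, 1 lower and a median of 0.88. A 3-fold rule gave 4 higher and 1 lower. The counts of these 2 settings are not set beside those of all genes here, so they do not set these genes apart. Centring on the all-gene median gave 2 lower, against 8.76% of all genes. These scalings put the all-gene median at -0.10 (upper quartiles), -0.56 (sums) and 0.28 (gfold constants), and the share of all calls that were higher at 43.1%, 15.2% and 72.5%, against 32.9% unscaled and 52.4% centred; the shift is the scaling's own construction. The median from the all-gene median stayed between 0.39 and 0.60, though scalings nearly cancel in it. Isoenzyme balances were recomputed only with other pseudocounts and other transcripts, and all 56 values kept their direction. Only 6 of the 46 genes have several transcripts, so a change of transcript leaves many balances as they are. Genes within 2-fold changed sign in 13 cases with the gfold constants, 10 with centring, 8 with equal upper quartiles and 6 with equal sums. Counting error is small for most genes, and the spread between mice is unknown.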
